A study of Mus musculus with 12 samples.

Results

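The genes described here are the 56 protein-coding genes that begin within 10 Mb of Rag1 on mouse chromosome 2 (91638282 to 111638282, GRCm38, GENCODE M21) and were selected on a mean level of at least 1 CPM (reads of a gene scaled to library size) over 12 libraries. Rag1 itself, Rag2 and Cat, the catalase gene, were left out by the rule. The window holds 121 annotated protein-coding genes. Of the 116 that had matched transcripts, the 3 named genes aside, 60 lay under 1 CPM, 19 of them with no reads, and 56 stayed, of 29542 genes in all. The mean level chose these genes and their position set the window, so neither is a result. Just inside the level rule were Large2, at a mean of 1.24 CPM, and Mpped2, at 1.43 CPM, and just outside it Elf5, at 0.983 CPM, and Creb3l1, at 0.943 CPM. Zfp408 and Arhgap1 were the members nearest the lower edge, and Lin7c and Ccdc34 those nearest the upper edge. Ckap5 and Lrp4 lay just beyond the lower edge, and Lpcat4 and Nop10 beyond the upper.

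The RNA came from ILC2s, group 2 innate lymphoid cells, tissue lymphocytes that respond to IL-33 with type 2 cytokines, taken from skin-draining lymph nodes. They came from mixed marrow chimeras: CD45.1 recipients received 950 cGy and then equal parts of CD90.1 WT marrow and CD45.2 Rag1-/- marrow, whose ILC2s carry the CD90.2 label. All samples are labelled C57BL6. Every recipient was given IL-33 daily for 7 days, 30 ng into each cheek and 240 ng into the peritoneum. The 4 groups of 3 libraries were WT and knockout-labelled ILC2s at 8 weeks and at 20 weeks after transplant (the series text gives another length for the later time, and the sample labels were followed). The labels name neither the knockout allele nor the origin of the chromosome around it, and the age of donors and recipients is not given in the sources used here, nor is their sex. Nor do they state whether the replicates of a group are different animals; the p-values then reflect only how these libraries vary, which may be technical.

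RAG1 and RAG2 form the recombinase that cuts antigen receptor genes in developing lymphocytes, and their genes lie next to each other in opposite orientations. A gene called B230118H07Rik in the annotation, for which RefSeq uses the symbol Iftap and the older name NWC, spans both of them and encodes a protein associated with intraflagellar transport. When a targeted allele is bred onto an inbred background, chromosome that flanks it is inherited with it. Neighbouring genes of a targeted locus are therefore commonly inspected in their own right.

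The libraries held 11433625 to 32529806 estimated reads. Rag1 had 0 estimated reads in all 6 WT libraries, against 0, 14.5 and 12.2 in 8-week knockout-labelled libraries and 13.2, 18.4 and 10.8 in those of 20 weeks, where a count of 0 allows up to 3 reads. The allele is not named, and whether these few reads bear on the genotype labels was not tested. Those libraries are called knockout-labelled throughout. Of the 10 ILC2 markers all were tested and none was called; their summed level ran from 3425 to 4613 CPM over the 12 libraries. In the T cell list Cd4, Cd8a and Cd3e had median levels of 0.401, 0.861 and 0.356 CPM, while Lck and Cd3g had 133 and 41 CPM. The list's sum, mostly from Trbc1 and Trbc2, was 940 to 1192 CPM in WT and 628 to 1007 CPM in 8-week knockout-labelled libraries. The 20-week sums were 935 to 1077 and 734 to 925 CPM, without overlap (median averaged log2 fold change -0.32 over the list, 0 of 11 called). B cell markers summed to 172 to 384 CPM in WT and 193 to 583 CPM in 8-week knockout-labelled libraries, and to 206 to 319 and 164 to 200 CPM at 20 weeks, again without overlap. NK cell markers, mostly Gzma, summed to 56.7 to 231 CPM in WT and 72.6 to 228 CPM in 8-week knockout-labelled libraries, and to 35.0 to 55.9 and 52.1 to 69.6 CPM at 20 weeks (median 0.34, 0 called). The part these lists have in the results was not tested. Myeloid markers stayed between 6.85 and 24.7 CPM, with Fcgr1 at 0. The Y-linked genes Uty, Ddx3y and Eif2s3y were at 48.1 to 157 CPM in the 3 20-week WT libraries and at 0.179 to 2.61 CPM in the other 9. The genotypes therefore differ in these genes at 20 weeks and not at 8 weeks, and in the 20-week difference, the change with time and the 20-week part of the average, genotype and sex of the cells cannot be told apart. In bulk libraries, fewer cells of a type and less RNA per cell cannot be told apart.

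Only B230118H07Rik differed between genotypes among the 56 genes past the adjusted threshold: it was 2.89-fold higher in knockout-labelled ILC2s averaged over both times (log2 fold change 1.53, SE 0.22, adjusted p = 0.00742 by edgeR's quasi-likelihood test with Benjamini-Hochberg adjustment over 14431 genes). Over all genes tested, 0.222% were called in that average. None of the 56 was called at 8 weeks alone, where 0.201% of all genes were, at 20 weeks alone, where 0.0554% were, or for a genotype difference that changed with time, where 0.097% were. DESeq2 called 2 of them at 8 weeks, B230118H07Rik and Prr5l, 1 at 20 weeks, B230118H07Rik, and 1 for the change with time, Prr5l; limma-voom called 0 in each. At an unadjusted p under 0.05 edgeR counted 3 members in the average (5.36%, against 3.71% of all genes), 5 at 8 weeks (8.93%, against 3.62%), 3 at 20 weeks (5.36%, against 2.08%) and 3 for the change with time (5.36%, against 2.18%). Catalase, which the rule leaves out, would have been the other called gene of the window: Cat was lower in knockout-labelled cells (log2 fold change -0.58, SE 0.10, adjusted p = 0.0407 by the same test).

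**Figure D1:**
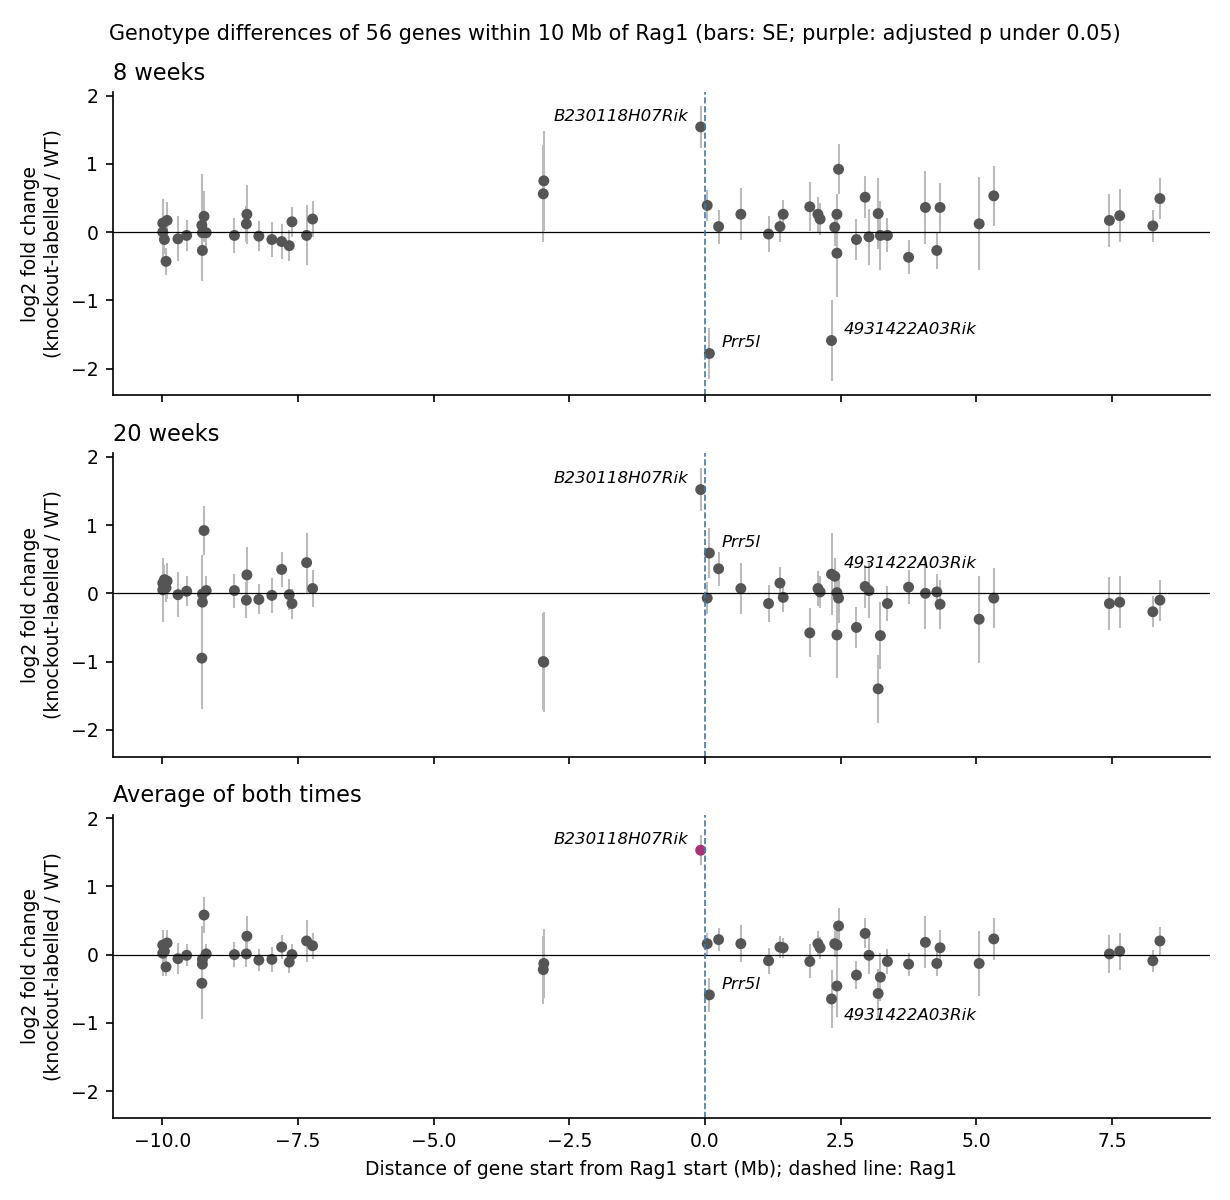
Log2 fold change of knockout-labelled against WT ILC2s for the 56 genes (vertical axis) by distance of the gene start from that of Rag1 in Mb (horizontal axis), at 8 weeks, at 20 weeks and averaged; points are genes, bars are SE, and purple marks an adjusted p under 0.05. B230118H07Rik is high in all 3 panels, Prr5l is low at 8 weeks and above 0 at 20 weeks, and most other genes lie near 0.

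B230118H07Rik (ENSMUSG00000027165, chromosome 2, 101560781 to 101649532, minus strand) separated the genotypes at both times without overlap. In CPM scaled by TMM, a size factor computed from the libraries' shared genes, it stood at 6.38, 7.11 and 3.92 CPM in 8-week WT libraries and at 13.9, 16.8 and 19.9 CPM in knockout-labelled ones. At 20 weeks it stood at 3.13, 5.07 and 3.82 CPM in WT and at 9.30, 10.5 and 14.8 CPM in knockout-labelled libraries. All 6 knockout-labelled libraries thus lay above all 6 WT libraries. The log2 fold change was 1.54 (SE 0.31, adjusted p = 0.108 by edgeR) at 8 weeks and 1.52 (SE 0.31, adjusted p = 0.247) at 20 weeks, and the difference between them was -0.02 (SE 0.44). Of 56 members it was the sole gene whose genotypes did not overlap in the same direction at both times, as held for 0.686% of all genes tested. The averaged call was lost with the replicate number as a block (log2 fold change 1.54, adjusted p = 0.0996) and with counts rebuilt from the deposited TPM (1.43, adjusted p = 0.0539). It held without both 8-week libraries taken as standing apart, WT replicate 2 and knockout-labelled replicate 3 (1.56, adjusted p = 0.0159). The measure by which they were taken as such is not given here.

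The transcripts of B230118H07Rik begin at separate places in the Rag locus. B230118H07Rik-209 starts 31 bases upstream of Rag1, on the same strand, and its first exon of 111 bases (101649422 to 101649532) contains all 80 bases of the first exon of Rag1 and ends at the same splice site. B230118H07Rik-202 starts in an intron of Rag2, on the strand opposite to Rag2, with a first exon at 101628881 to 101628942. Both are joined to the same next exon, in which their coding sequence begins. The junctions below are shown because they are where these transcripts and Rag1 part; lower case marks the last 15 bases of the first exon and capitals the first 15 bases of the next exon (RNA sense, written as DNA, GENCODE M21).
B230118H07Rik-209: ggcctgtggagcaagAGTGGCCTTGTGAAT
Rag1-201: ggcctgtggagcaagGTAGCTTAGCCAACA
B230118H07Rik-202: gctagggaacgggagAGTGGCCTTGTGAAT
The lower-case parts of B230118H07Rik-209 and Rag1-201 are the same letters, and the capitals of B230118H07Rik-209 and B230118H07Rik-202 are the same letters.

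Values for both sets of starts were higher in knockout-labelled libraries. The 3 transcripts that begin in the exon shared with Rag1 summed to 3.45, 0.862 and 1.34 CPM in 8-week WT libraries and to 7.38, 4.23 and 8.46 CPM in knockout-labelled ones. At 20 weeks they summed to 1.48, 0.778 and 0 CPM in WT and to 6.24, 4.36 and 6.13 CPM in knockout-labelled libraries. The groups did not overlap at either time, and B230118H07Rik-209 carried nearly all of these reads. The 4 transcripts that begin inside Rag2 summed to 1.57, 3.73 and 1.58 CPM in WT against 5.66, 7.58 and 4.71 CPM in knockout-labelled libraries at 8 weeks. At 20 weeks they summed to 1.68, 3.34 and 3.49 CPM in WT and to 2.44, 5.26 and 8.01 CPM in knockout-labelled libraries, so the groups overlapped there.

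**Figure D2:**
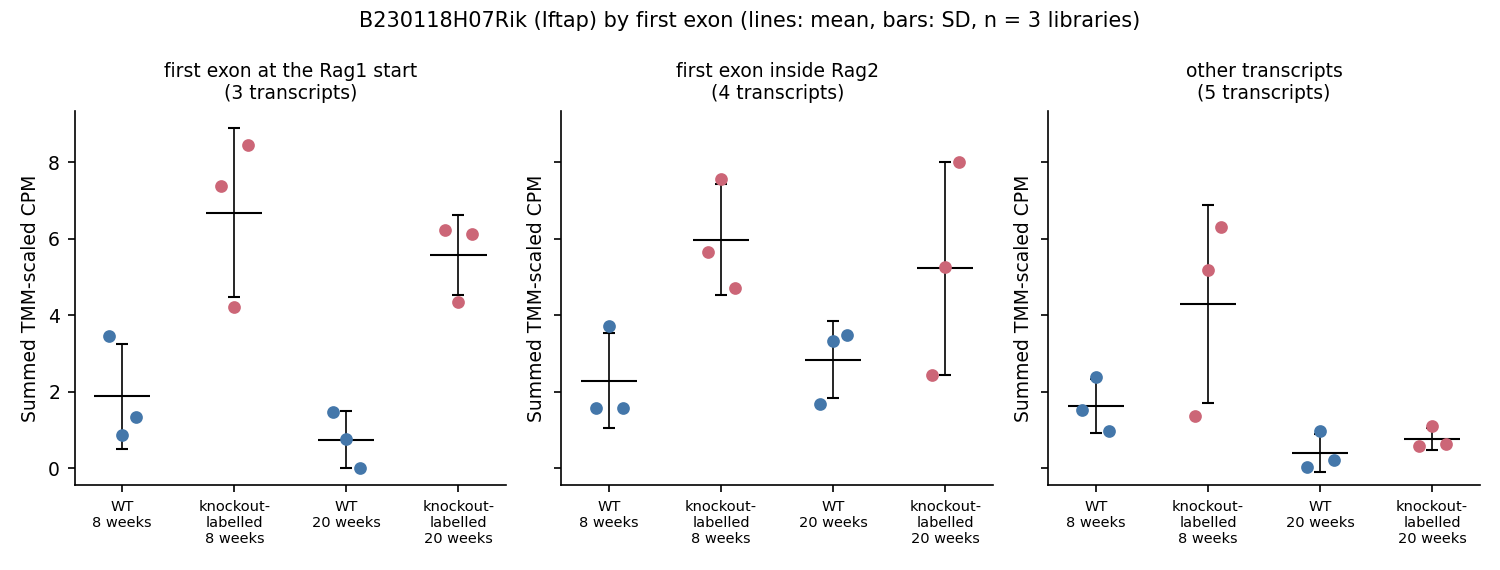
Summed TMM-scaled CPM of B230118H07Rik transcripts (vertical axis) in each library by group (horizontal axis), split by where the first exon lies; points are libraries, lines the mean and bars the SD of 3. Transcripts starting at Rag1 lie between 4.23 and 8.46 CPM in knockout-labelled libraries and between 0 and 3.45 CPM in WT libraries.

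As single transcripts, B230118H07Rik-202 and B230118H07Rik-209 were the 2 of 193 tested member transcripts (1.04%) whose genotypes were apart in the same direction at both times, against 0.482% of all transcripts tested. The averaged log2 fold change was 1.43 for B230118H07Rik-202 (SE 0.38, adjusted p = 0.949 by edgeR) and 2.33 for B230118H07Rik-209 (SE 0.72, adjusted p = 1). Neither passed the test over 35236 transcripts. B230118H07Rik-210, a retained-intron transcript that also begins inside Rag2, was listed at 0 CPM in 5 of 6 WT libraries and reached 0.431, 1.46 and 1.49 CPM in 20-week knockout-labelled libraries. The share of the gene's reads from starts at Rag1 was 33.1% ± 20.2 (SD, n = 3) in WT and 39.8% ± 13.5 in knockout-labelled libraries at 8 weeks, and 20.6% ± 23.6 and 49.9% ± 15.2 at 20 weeks. Transcript usage of the gene did not pass the test in the average (unadjusted p = 0.12, adjusted p = 0.766 by edgeR's diffSpliceDGE). Of 1279 different 20-base words in the transcripts that start at Rag1, 271 (21.2%) occur in no other transcript of the gene or of Rag1. Of its own, B230118H07Rik-208 has 223 words, but it was at 0 CPM in all 12 libraries. B230118H07Rik-209 has 0 words of its own. It shares 61 words with Rag1-201, which has 6589. The part this sharing has in the level of either gene was not tested.

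The 250 bases before a RefSeq start at each place are shown because the transcripts begin at these separate places (GRCm38.p6, minus strand, read 5′ to 3′). The Rag1 window adjoins the first exon of B230118H07Rik-209. The Iftap window lies before a RefSeq start that is upstream of the first exon of B230118H07Rik-202. RefSeq has another Iftap start, with its window at chr2:101621047-101621296, which is not shown. Capitals mark matches to the motifs searched on both strands.
Rag1, chr2:101649533-101649782: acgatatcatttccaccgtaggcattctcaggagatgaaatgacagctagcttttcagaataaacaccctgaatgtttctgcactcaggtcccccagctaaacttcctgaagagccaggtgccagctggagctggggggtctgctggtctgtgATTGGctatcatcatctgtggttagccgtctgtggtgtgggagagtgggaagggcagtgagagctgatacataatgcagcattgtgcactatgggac
Iftap, chr2:101629032-101629281: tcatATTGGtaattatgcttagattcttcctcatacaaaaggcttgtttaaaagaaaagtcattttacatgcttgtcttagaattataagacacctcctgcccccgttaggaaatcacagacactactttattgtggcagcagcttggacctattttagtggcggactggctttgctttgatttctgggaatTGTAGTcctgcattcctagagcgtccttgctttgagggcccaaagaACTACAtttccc
One motif searched was CCAAT. Others were the core promoter element TATAAA, which neither window holds, and GGGCGG, the GC-rich box, also in neither. Motifs of factors with known roles in lymphocytes were AGATAA, bound by factors of the GATA family, and TGANTCA, bound by the AP-1 family, and both windows lack them. The last was ACTACA, part of the site of the factor ZFP143, and no motif contains another. Each of these windows holds 1 CCAAT, found in 33.8% of 32851 mouse promoter windows of the same length. The Iftap window also holds 2 matches to ACTACA, found in 8.92%. A match describes letters and is no evidence of binding. RefSeq had a promoter entry for 48 of the 56 members.

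Besides B230118H07Rik, 3 members begin within 0.5 Mb of Rag1. Traf6 (chromosome 2, 101678429 to 101701669), which encodes the ubiquitin ligase that carries signals from receptors of the IL-1 family including the IL-33 receptor, stood at 10.8, 13.7 and 12.6 CPM in WT and 19.3, 11.2 and 18.1 CPM in knockout-labelled libraries at 8 weeks. At 20 weeks it was at 14.1, 15.9 and 16.1 CPM in WT and at 15.3, 13.0 and 15.6 CPM in knockout-labelled libraries. The groups overlapped at both times and the averaged log2 fold change was 0.16 (SE 0.16). Commd9, whose protein belongs to the COMMD family of endosomal sorting factors, overlapped likewise, at 40.9 ± 10.9 CPM in WT and 43.3 ± 5.05 CPM in knockout-labelled libraries at 8 weeks (SD, n = 3) and 27.8 ± 5.09 and 35.8 ± 8.67 CPM at 20 weeks (averaged log2 fold change 0.22, SE 0.17).

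**Figure D3:**
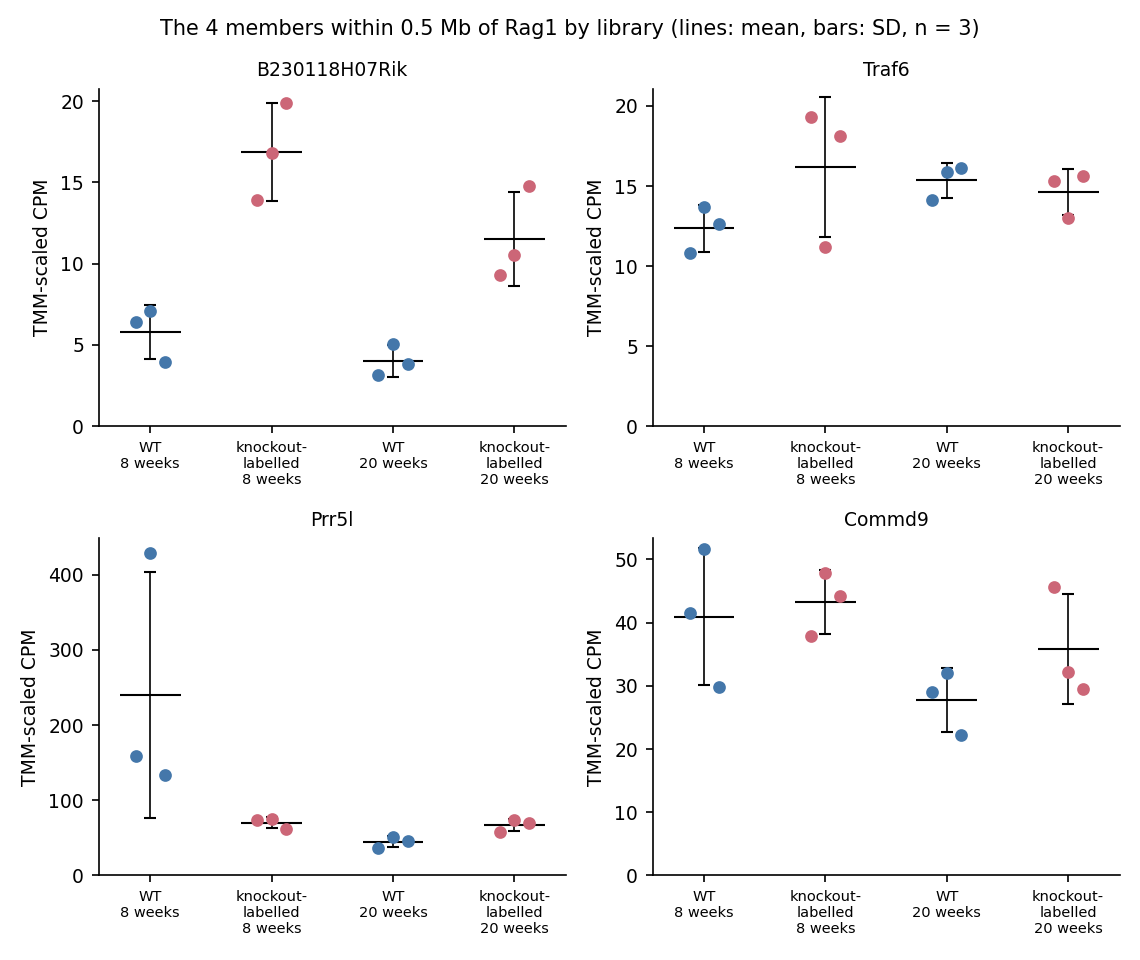
TMM-scaled CPM (vertical axis, from 0) in each library by group (horizontal axis) for the 4 members within 0.5 Mb of Rag1; points are libraries, lines the mean and bars the SD of 3. B230118H07Rik is apart at both times, Prr5l is apart in opposite directions, and Traf6 and Commd9 overlap.

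Prr5l, the third of these, lay below WT at 8 weeks and above it at 20 weeks in knockout-labelled cells. It encodes a protein that binds mTOR complex 2, a kinase complex that acts on AKT and the cytoskeleton (ENSMUSG00000032841, chromosome 2, 101714285 to 101883027, minus strand). At 8 weeks it stood at 159, 429 and 133 CPM in WT and at 73.1, 75.1 and 61.5 CPM in knockout-labelled libraries, all of the latter lower. At 20 weeks it stood at 36.8, 51.3 and 45.9 CPM in WT and at 57.8, 73.8 and 70.2 CPM in knockout-labelled libraries, all of the latter higher. It was the sole member apart in opposite directions, as held for 0.249% of all genes tested. The mean of knockout-labelled libraries was 69.9 ± 7.36 CPM at 8 weeks and 67.3 ± 8.38 CPM at 20 weeks (SD, n = 3), and the WT mean was 240 ± 164 CPM at 8 weeks and 44.7 ± 7.37 CPM at 20 weeks. The log2 fold change was -1.78 (SE 0.37, adjusted p = 0.134 by edgeR) at 8 weeks and 0.59 (SE 0.36, adjusted p = 1) at 20 weeks. Without WT replicate 2 of 8 weeks the 8-week value was -1.06 (adjusted p = 0.0783), without WT replicate 3 it was -2.09 and passed (adjusted p = 0.0346), and DESeq2 gave -1.80 (adjusted p = 0.000566). The difference between these was 2.37 (SE 0.51, unadjusted p = 0.000539, adjusted p = 0.259), which did not pass. WT replicate 2 of 8 weeks, which had the highest Prr5l level, was taken as standing apart from the other libraries. Without it the difference was 1.66 and passed (adjusted p = 0.047 by edgeR). Without it and knockout-labelled replicate 3 of 8 weeks, also taken as standing apart, the difference was 1.58 (adjusted p = 0.0431). The 8-week value was then -0.97 (adjusted p = 0.109). For the difference, DESeq2 gave 2.39 with all libraries (adjusted p = 0.00363). Of all alternatives, only 3 of 20 passed for the change with time and 2 of 21 for the 8-week difference. With limma-voom, with the replicate block and with counts from the deposited TPM neither passed. The 20-week WT libraries also differ from the others in the Y-linked genes.

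The transcripts of Prr5l begin at a proximal and a distant start and share a coding sequence of 1110 bases in Prr5l-201, Prr5l-209 and Prr5l-210. They part before the exon in which coding begins, so the junctions into that exon (capitals) are shown with the last 15 bases of the exon before it (lower case).
Prr5l-210: ggggaccccaaggggGGCTTGGCTGAGTAG
Prr5l-201: agacggaggcgagcgGGCTTGGCTGAGTAG
Prr5l-209: tcatggacatagaagGGCTTGGCTGAGTAG
The 8-week excess of WT cells lay in Prr5l-201 and Prr5l-209. Prr5l-201, with the shorter first exon at the proximal start, was at 79.3, 235 and 45.9 CPM in WT and 38.9, 18.2 and 0 CPM in 8-week knockout-labelled libraries. Prr5l-209, from the distant start, was at 78.8, 133 and 77.3 CPM in WT and 0, 18.6 and 17.7 CPM in 8-week knockout-labelled libraries. Prr5l-210, with the longer first exon at the proximal start, had the opposite order, at 2.55, 0 and 8.77 CPM in WT and 36.5, 38.6 and 42.2 CPM in knockout-labelled libraries. At 20 weeks it was at 6.48, 24.5 and 13.6 CPM in WT and at 46.8, 24.5 and 40.0 CPM in knockout-labelled libraries, so the groups overlapped where the highest WT value met the lowest knockout-labelled one.

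Prr5l-210 made up 2.74% ± 3.47 of the gene's reads in WT and 56.4% ± 12.0 in 8-week knockout-labelled libraries (SD, n = 3), and 31.8% ± 15.2 and 56.9% ± 24.3 at 20 weeks. Its log2 fold change at 8 weeks was 3.36 (SE 1.07, unadjusted p = 0.00986, adjusted p = 1 by edgeR) and its average 2.34 (SE 0.72, adjusted p = 1), and neither passed. Usage of the gene's transcripts did not pass either (averaged adjusted p = 0.293 by diffSpliceDGE). Prr5l-206, a shorter transcript grouped with Prr5l-210 by its start, was at 48.2 CPM in WT replicate 2 of 8 weeks. With it, the longer form summed to 4.57, 48.2 and 8.77 CPM in WT libraries, which overlaps the knockout-labelled range. Prr5l-209 and Prr5l-210 have 0 words of 20 bases of their own and Prr5l-201 has 17 of 2271, so few words tell them apart.

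**Figure D4:**
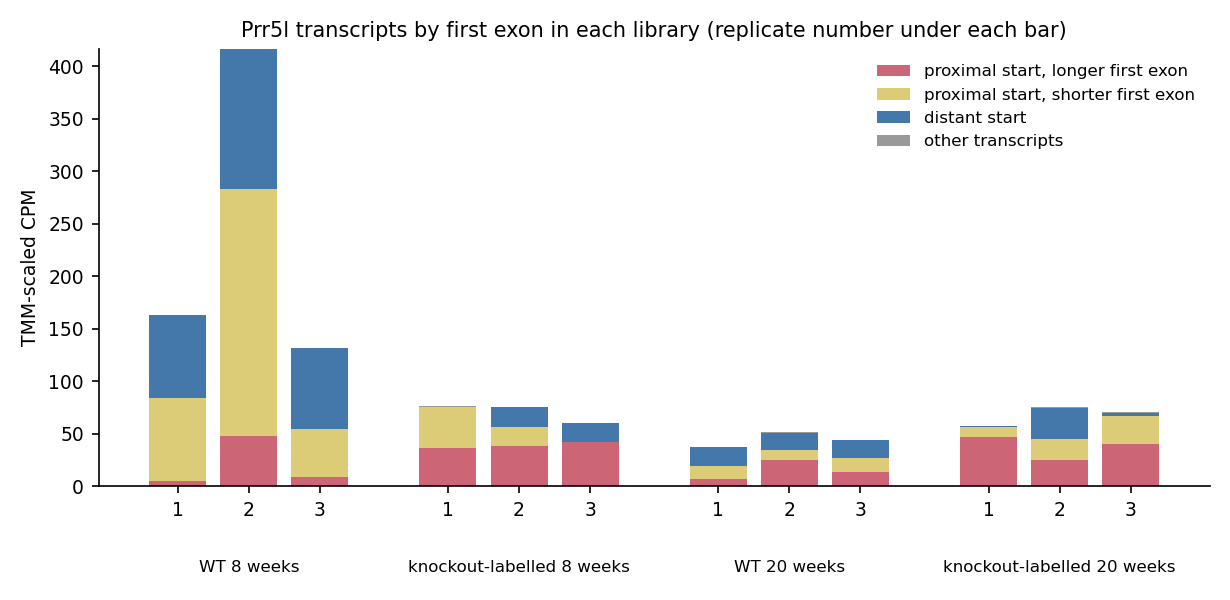
TMM-scaled CPM of Prr5l in each library (vertical axis, stacked from 0), split by first exon; each bar is a library, with its replicate number below and its group under that. 8-week WT libraries are tallest, at 133 to 429 CPM for the gene, and the longer form at the proximal start makes up most of the reads in 2 of 3 knockout-labelled libraries at each time.

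Surface receptors and lymphocyte signalling genes made up 10 members of a list of 21, and 0 were called in the average (median log2 fold change 0.04, against 0.01 over all genes tested). Besides Prr5l, the smallest p belonged to Cd59a, which encodes a GPI-anchored inhibitor of complement. It was at 2.84, 2.07 and 1.35 CPM in WT and 3.95, 4.92 and 3.02 CPM in 8-week knockout-labelled libraries, without overlap (log2 fold change 0.92, SE 0.37, unadjusted p = 0.0298, adjusted p = 1 by edgeR). At 20 weeks the groups overlapped, at 3.50 ± 0.31 and 3.32 ± 0.965 CPM. Its neighbour Cd59b is a close copy, so reads may be divided between them, and both levels are uncertain. Hipk3, a nuclear kinase gene, had an averaged log2 fold change of -0.30 (SE 0.21). Abundant receptors of ILC2s gave overlapping groups: Cd82, a tetraspanin gene with the highest level of all members at a mean of 856 TPM, a length-corrected unit, had a difference of -0.08 (SE 0.16), and Cd44, the hyaluronan receptor gene, of -0.09 (SE 0.19).

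A list drawn up for RNA processing and translation contributed 11 members of 13. It also holds genes with other roles, Kif18a, a mitotic kinesin gene, Lin7c, a cell polarity scaffold gene, and Api5, so its counts are not those of RNA genes alone: 0 were called and 0 had an unadjusted p under 0.05. Their median log2 fold change was 0.19 at 8 weeks and -0.02 at 20 weeks, against 0.02 and -0.01 over all genes tested. Cstf3, a subunit gene of the factor that cleaves pre-mRNA for polyadenylation, was at 29.7 ± 13.3 CPM in WT and 42.4 ± 12.7 CPM in 8-week knockout-labelled libraries, and at 41.1 ± 1.32 and 44.2 ± 0.756 CPM at 20 weeks, where the groups did not overlap (averaged log2 fold change 0.31, SE 0.22). Nat10, which acetylates cytidines in RNA, had an averaged difference of 0.16 (SE 0.18), and Api5, an apoptosis inhibitor gene, of 0.13 (SE 0.19).

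The list for mitochondrial, peroxisomal, lipid and sugar metabolism, which also holds Rcn1, contributed 10 members of 14. Again 0 were called and 0 had an unadjusted p under 0.05 (median -0.03). Rcn1, a calcium-binding protein gene of the endoplasmic reticulum, had groups that did not overlap at 8 weeks, at 9.54 ± 2.24 CPM in WT and 7.40 ± 0.264 CPM in knockout-labelled libraries, and its log2 fold change of -0.37 did not pass (unadjusted p = 0.165). Large2, a glycosyltransferase gene near the level threshold, had an averaged difference of -0.42 with an SE of 0.53. Pdhx, a component gene of the pyruvate dehydrogenase complex, had 0.11 (SE 0.16).

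From the list for ubiquitin ligases, trafficking and autophagy, which also holds Harbi1, came 11 members of 12, with 0 called (median 0.16). The list's other entry, Iftap, is B230118H07Rik and is counted with the last group below because it was matched by the annotation's symbol. Harbi1, derived from a transposase, was at 24.5 ± 4.46 CPM in WT and 18.1 ± 2.99 CPM in 8-week knockout-labelled libraries (log2 fold change -0.43, SE 0.20, unadjusted p = 0.047, adjusted p = 1 by edgeR), and at 22.4 ± 1.61 and 23.7 ± 1.33 CPM at 20 weeks; the groups overlapped at both times. Ambra1, which promotes autophagy, had an averaged difference of 0.17 (SE 0.19) and Trim44, which lies 0.66 Mb from Rag1, of 0.16 (SE 0.27).

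Transcription and clock factors contributed 6 members of a list of 13, with 0 called (median 0.00). Hipk3 is on this list and, like Traf6 of the ubiquitin list, also among the receptor and signalling genes, so both are counted in each. Cry2, which encodes a repressor of the circadian clock, was at 2.80, 4.64 and 3.43 CPM in WT and 4.23, 5.01 and 3.42 CPM in 8-week knockout-labelled libraries. At 20 weeks it was at 5.04, 4.49 and 1.95 CPM in WT and at 7.52, 6.30 and 8.08 CPM in knockout-labelled libraries. The groups overlapped at 8 weeks and were apart at 20 weeks, with an averaged log2 fold change of 0.58 (SE 0.26, unadjusted p = 0.0453, adjusted p = 1 by edgeR). Cry2 lies at -9.23 Mb from Rag1 (lower coordinates), near the edge of the window.

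The other 10 members matched none of these lists by symbol, and B230118H07Rik was the 1 called. Prrg4, a transmembrane protein gene, was at 0.874, 0.988 and 2.02 CPM in WT and 0.717, 1.25 and 2.85 CPM in 8-week knockout-labelled libraries. At 20 weeks it was at 8.40, 4.80 and 6.56 CPM in WT and at 2.85, 2.35 and 2.25 CPM in knockout-labelled libraries. The later groups were apart, with a log2 fold change of -1.40 (SE 0.50, unadjusted p = 0.0148, adjusted p = 1 by edgeR). 4931422A03Rik, a gene of unknown role, was lower in all 8-week knockout-labelled libraries, at 1.36, 1.30 and 1.63 CPM against 2.18, 9.19 and 1.72 CPM in WT (log2 fold change -1.59, SE 0.60, unadjusted p = 0.0203, adjusted p = 1). Its highest value, like that of Prr5l, came from WT replicate 2, which was taken as standing apart. Gm10800 and Gm10801, neighbouring gene models at -2.97 and -2.98 Mb from Rag1, followed each other: their means were 108 and 47.2 CPM in WT and 182 and 69.8 CPM in 8-week knockout-labelled libraries, and 891 and 357 CPM against 442 and 178 CPM at 20 weeks. Their SE of 0.51 and 0.50 exceeded the averaged differences of -0.13 and -0.22, and reads may be shared between the models, so both are uncertain.

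By position, the called member lay at Rag1 itself. The 4 genes within 0.5 Mb had a median size of averaged log2 fold change of 0.41, with B230118H07Rik and Prr5l the 2 above it. The 24 members from 0.5 to 5 Mb had a median size of 0.15 with 0 at an unadjusted p under 0.05. Cat, which the rule leaves out, also lies between 0.5 and 5 Mb, at 1.82 Mb. It was called, with an averaged log2 fold change of -0.58 (adjusted p = 0.0407 by edgeR). The 28 members from 5 to 10 Mb had a median size of 0.10 with 1 at an unadjusted p under 0.05, Cry2. Over all 56 members the median size was 0.13, beside 0.15 over all genes tested and 0.12 over the 842 genes of the rest of chromosome 2 that met the same type and level rule. Of those 842 genes, 2 were called and 3.56% had an unadjusted p under 0.05. The members are spread unevenly: of the 25 at lower coordinates 22 lie 7 to 10 Mb away, and the other 31 lie at higher coordinates.

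The direction of a gene's difference was compared between the times. The log2 fold changes at 8 and 20 weeks, which share no library, had the same sign in 26 of 56 members (46.4%, against 52.1% of all genes tested), and their Pearson r across genes was -0.06, or -0.34 without B230118H07Rik, against 0.11 over all genes tested. Genes are not independent replicates, and r ran from -0.27 to 0.16 when single libraries were left out. The value of 0.16 was that without WT replicate 2 of 8 weeks. Prr5l, with log2 fold changes of -1.78 at 8 weeks and 0.59 at 20 weeks, was kept in each of these values. At 8 weeks 5 of 56 members (8.93%) did not overlap between genotypes, against 5.63% of all genes tested; 2 (3.57%) were higher, against 2.91%, and 3 (5.36%) lower, against 2.72%. At 20 weeks 11 of 56 (19.6%) did not overlap, against 11.4%, with 5 (8.93%) higher, against 5.34%, and 6 (10.7%) lower, against 6.08%. Whether these shares differ from those of other genes was not tested. The 20-week set was Large2, Cry2, Accs, Gm10801, B230118H07Rik, Prr5l, Gm10912, Hipk3, Cstf3, Prrg4 and Ccdc73.

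The genes around Thy1 on chromosome 9 give a comparison with the same window size, gene type and level. CD90 alleles of this locus were chosen to tell the donors apart. Thy1 alone was left out there, whereas the Rag1 rule also left out Rag2 and Cat. Cat was called in the average, and its knockout-labelled libraries lay below WT without overlap at both times. The counts around Rag1 given here do not include it. Of the 108 genes around Thy1, 23 (21.3%) had an unadjusted p under 0.05 in the average. Around Rag1 3 of 56 did (5.36%), as did 3.71% of all genes tested. Of the 108, 5 were called, against 1 of the 56 and 0.222% of all genes tested. The median size around Thy1 was 0.20. There 13 genes (12%) did not overlap between genotypes in the same direction at both times. That compares with 1 of the 56 around Rag1 (1.79%) and 0.686% of all genes tested. The Pearson r between the times was 0.81, or 0.69 without Tmprss13, the gene with the largest averaged difference there. Whether the windows differ was not tested.

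**Figure D5:**
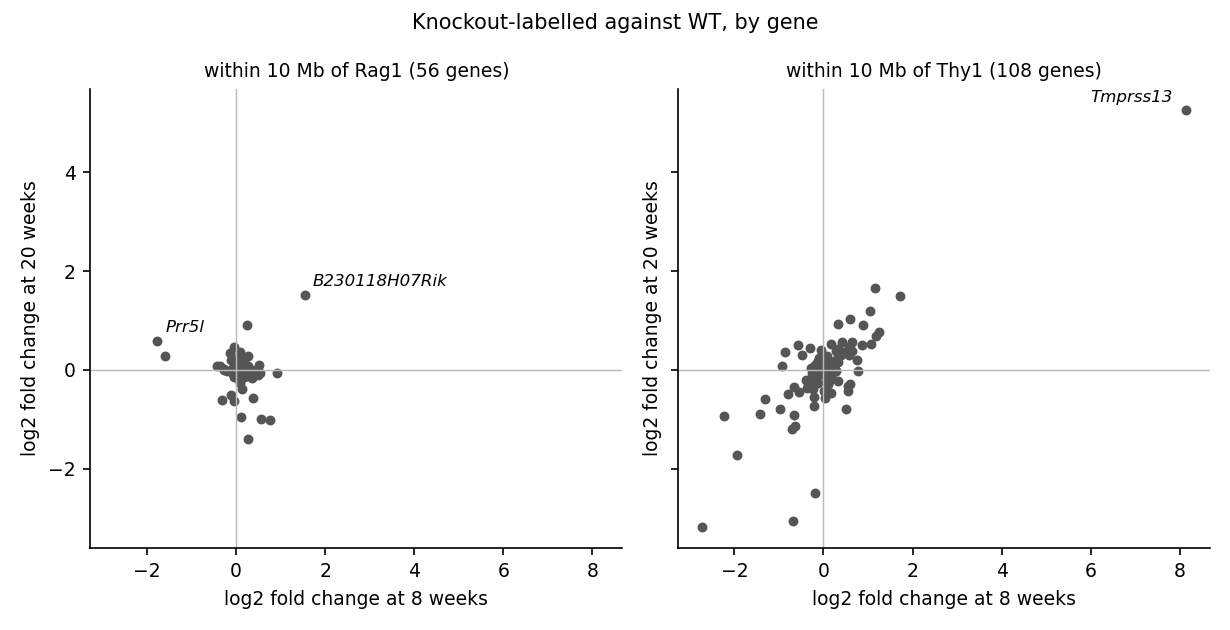
Log2 fold change of knockout-labelled against WT ILC2s at 8 weeks (horizontal axis) and at 20 weeks (vertical axis), each point a gene, for the 56 genes around Rag1 (left) and the 108 around Thy1 (right). Around Rag1 only B230118H07Rik lies far out along the rising diagonal, with Prr5l at the upper left; around Thy1 more genes lie along it, Tmprss13 farthest out.

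The map was repeated transcript by transcript. Of 349 transcripts of the 56 genes, 193 were tested and 0 were called at 8 weeks, at 20 weeks or in the average, by edgeR or by limma-voom; over all transcripts tested 0.0454%, 0.0114% and 0.0596% were called. At an unadjusted p under 0.05 there were 12 in the average, 10 of them higher (6.22%, against 3.65% of all), 13 at 8 weeks (6.74%, against 3.58%) and 8 at 20 weeks (4.15%, against 2.17%). The smallest averaged p after those of Cd59a-202, B230118H07Rik and Prr5l belonged to Api5-204, whose difference was 1.35 on the log2 scale (SE 0.49, adjusted p = 1 by edgeR). The spread between replicates was large, with a common biological coefficient of variation of 0.827 for transcripts and 0.377 for genes, so many differences could not be detected at this level.

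Usage of transcripts within a gene passed the test in 1 of 42 members, Cd59a (averaged adjusted p = 0.0405 by diffSpliceDGE; 0.361% of 6923 genes passed). Cd59a-202 was at 0 CPM in 5 of 6 WT libraries and at 0.0895 CPM in the other, and it reached 0.0745, 0.292 and 1.60 CPM in 8-week knockout-labelled libraries and 0.575, 0.568 and 0.383 CPM in those of 20 weeks. It has 0 words of 20 bases of its own, and the call held in 2 of 14 alternatives, with adjusted p from 0.0278 to 0.367. On simulated counts this usage test also called many genes with no built-in change, so passing it is weak ground for a usage difference. With limma-voom diffSplice the call did not pass (adjusted p = 0.326).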

How the data were processed

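The authors deposited a transcript quantification per library, made with sailfish 0.6.3 from 20-base words against an Ensembl 76 index, per the file headers; strand was not given. Each file holds an estimated count of reads and a TPM value per transcript, as the authors deposited them. Tools named in the submitters' processing notes are STAR 2.0.4b, featureCounts 1.4.5, Subread and bcl2fastq. Header thread numbers were 8 in 6 libraries and 24 in the others, including all 3 20-week knockout-labelled libraries.

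Estimated counts were matched to GENCODE M21 (97.2% of 86127 transcripts, the unmatched holding 1.01 to 1.54% of reads), summed per gene, rounded, filtered with filterByExpr, TMM-scaled and tested in R 4.3.3 with edgeR 4.0.16 over all 12 libraries in 4 groups. Every p was adjusted over the whole table, with a threshold of 0.05. Transcripts were fitted likewise, and usage with diffSpliceDGE. TMM-scaled CPM does not correct for transcript length, and TPM does. DESeq2 1.42.0, limma 3.58.1, other filters, windows and scalings, a thread covariate, a replicate block and leaving out libraries were alternatives. Both kinds of fit were tested on simulated data.

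The numbers in the labels paired libraries at 8 weeks by the rule used: residuals of same-numbered libraries correlated at 0.226, 0.158 and 0.107, against 0.0707, 0.0715 and 0.117 at 20 weeks, where not every pair passed 0.1. Assignment uncertainty between transcripts was not used here and is not in the p-values. Members and lists were chosen with earlier results of these data known. Named genes were those called, those with the smallest p in each comparison, those not overlapping in the same direction at both times, those nearest to Rag1 and to the rule's thresholds, and the 2 to 4 of each list with the smallest p; Cd82, Cd44, Rcn1 and Gm10800 and the set apart at 20 weeks were added after their values were seen.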

Additional observations from a re-analysis of the deposited data

Results flagged for a closer look

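Prr5l was marked because its genotype difference changed direction between the times: all 3 knockout-labelled libraries lay below WT at 8 weeks and all 3 lay above WT at 20 weeks. The 20-week minus 8-week difference in log2 fold change was 2.37 (SE 0.51), and its test over all genes did not pass (adjusted p = 0.259 by edgeR's quasi-likelihood test).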

How the results depend on the processing

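B230118H07Rik kept its averaged direction in all 20 alternatives (log2 fold change 1.42 to 1.64) and its call in 18, so the count of members called in the average was 1 there and 0 with counts from the deposited TPM and with the replicate block. DESeq2 called 1 member at 20 weeks, 2 at 8 weeks and 1 for the change with time. Leaving out single libraries gave 0 to 1 members called at 8 weeks. The 1 was Prr5l without WT replicate 3 (log2 fold change -2.09, adjusted p = 0.0346 by edgeR). For the change with time it gave 0 to 1, the 1 being Prr5l without WT replicate 2 of 8 weeks. Without both libraries taken as standing apart the count for the change with time was 1. The median size of the averaged difference was 0.16 within 5 Mb and ran from 0.11 to 0.17 when single libraries were left out, and r between the times ran from -0.27 to 0.16. The usage count was 0 with limma-voom diffSplice, with the replicate block (Cd59a adjusted p = 0.367) and with transcripts at 1 CPM or more in 3 libraries, and 0 to 1 when single libraries were left out. Transcript counts were 0 in all 16 alternatives. The block changed no other call. Every library correlated best with its own number at both times. In mixed chimeras both genotypes can come from the same recipient, but the labels do not say that same-numbered libraries did. The main test leaves such pairing out. The causes of these changes were not tested. Of the values recomputed only this r, near 0, changed sign: it was 0.01 within 20 Mb, 0.16 without WT replicate 2 of 8 weeks, and 0.04 and 0.05 without knockout-labelled replicates 1 and 3 of 8 weeks. Groups of 3, the spread of transcripts and reads shared between transcripts limit what could be detected.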
